A study of Homo sapiens with 4 samples.

Results

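To describe how the genes of lipid synthesis behaved while osteoblasts were induced to mineralize, 35 genes of cholesterol and fatty acid synthesis, their transcriptional control and sterol efflux were followed in hFOB 1.19 cells. The genes were chosen by name from these pathways, with earlier results of these data known. Their shares beside those of all genes are therefore descriptions, not independent comparisons. They were read from the deposited mRNA table by gene symbol. All 35 were found among the 19610 symbols of that table. FPKM, which scale the fragments of a transcript by its length and by all mapped fragments of the library, were summed over the transcripts of each symbol. Each of the 35 genes reached at least 1 FPKM in at least 1 library, as did 12859 symbols in all.

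hFOB 1.19 is an immortalized human fetal osteoblast line that carries a temperature-sensitive SV40 large T antigen. The cells proliferate at a lower, permissive temperature and were moved to a higher temperature to mineralize, in medium with fetal bovine serum at both temperatures. Total RNA was sequenced from 1 library before the move (day 0, labelled as control) and from 1 library on each of days 3, 6 and 9 (labelled as undergoing mineralization). Since day 0 is also the only library from the lower temperature, the effects of temperature, of inactivation of the large T antigen and of differentiation cannot be told apart. With 1 library per time point there is no replicate error, so no p-value is given, and a difference between days is a difference between these libraries. A gene was counted as higher or lower where the log2 ratio, after 1 was added to both FPKM, was at least 1 or at most -1, a 2-fold limit. All log2 ratios below are on this scale, which makes the change of weakly expressed genes smaller.

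Cells build cholesterol from acetyl-CoA by way of mevalonate, isoprenoid units and squalene. The transcription factors SREBP-1 and SREBP-2, encoded by SREBF1 and SREBF2, are held in the endoplasmic reticulum by SCAP and the INSIG proteins while sterols are plentiful, and are released and cleaved when sterols run low. SREBP-2 mainly drives the sterol genes and SREBP-1 mainly the fatty acid genes. In the opposite situation, oxysterols activate the liver X receptors (LXR), encoded by NR1H2 and NR1H3, which switch on the transporters ABCA1 and ABCG1 that carry cholesterol out of the cell. In bone-forming cells cholesterol is also a membrane component, and farnesyl diphosphate synthase (FDPS) of this pathway is the target of the nitrogen-containing bisphosphonate drugs used against bone loss.

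The sequence before the start site is shown for 5 genes: the regulators SREBF2, SREBF1 and INSIG1, ABCA1 as the gene with the largest log2 ratio to day 0, and MVK, which with SREBF2 holds the sterol element TCACCCCA. The windows are those of RefSeq on GRCh38.p14, with 250 bases before and 50 after the start site, printed 5′ to 3′ on the gene's strand. A window was held for 30 of the 35 genes, in 44 windows. FDFT1, SQLE, ACAT2, ABCG1 and FASN had none. Motifs were searched on both strands. The windows lie at chr22:41832855-41833154 (plus strand) for SREBF2, chr12:109573544-109573843 (plus strand) for MVK, chr7:155297628-155297927 (plus strand) for INSIG1, chr9:104928106-104928405 (minus strand) for ABCA1 and chr17:17836937-17837236 (minus strand) for SREBF1. Capitals mark TCACCCCA, a sterol regulatory element to which SREBPs bind, and CCAAT boxes (ATTGG on the other strand), where the SREBP partner NF-Y binds, in SREBF2 and MVK. They mark TCACGTGA, which contains an E-box, in INSIG1. In ABCA1 they mark a direct repeat of GGTNA with 5 bases between the copies, which lies on the other strand. GGTNA is a shortened half-site of LXR elements, so the gap between full half-sites is smaller than 5 bases. In SREBF1 they mark GGGCGG, the GC box of Sp1.
SREBF2: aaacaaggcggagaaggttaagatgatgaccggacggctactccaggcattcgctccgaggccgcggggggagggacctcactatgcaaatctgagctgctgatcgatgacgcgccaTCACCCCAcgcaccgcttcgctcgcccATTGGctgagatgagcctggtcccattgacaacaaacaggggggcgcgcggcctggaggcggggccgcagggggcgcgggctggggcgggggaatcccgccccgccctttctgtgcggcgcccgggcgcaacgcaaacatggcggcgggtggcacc
MVK: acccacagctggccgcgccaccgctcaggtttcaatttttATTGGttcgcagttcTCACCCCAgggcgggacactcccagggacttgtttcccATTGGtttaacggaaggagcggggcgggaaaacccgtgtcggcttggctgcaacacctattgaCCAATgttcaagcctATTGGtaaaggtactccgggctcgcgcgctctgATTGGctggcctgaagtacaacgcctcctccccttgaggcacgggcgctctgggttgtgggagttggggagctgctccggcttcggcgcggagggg
INSIG1: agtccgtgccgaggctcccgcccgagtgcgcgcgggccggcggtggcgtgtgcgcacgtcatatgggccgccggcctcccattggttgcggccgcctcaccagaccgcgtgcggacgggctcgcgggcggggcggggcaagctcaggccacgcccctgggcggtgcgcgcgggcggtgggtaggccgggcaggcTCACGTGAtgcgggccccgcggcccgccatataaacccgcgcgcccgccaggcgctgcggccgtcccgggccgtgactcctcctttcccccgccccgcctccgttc
ABCA1: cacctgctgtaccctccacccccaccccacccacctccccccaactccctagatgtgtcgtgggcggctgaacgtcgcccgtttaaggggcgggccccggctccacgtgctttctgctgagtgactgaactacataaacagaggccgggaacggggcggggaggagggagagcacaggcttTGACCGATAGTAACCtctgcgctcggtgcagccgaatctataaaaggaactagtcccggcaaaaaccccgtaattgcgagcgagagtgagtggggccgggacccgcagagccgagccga
SREBF1: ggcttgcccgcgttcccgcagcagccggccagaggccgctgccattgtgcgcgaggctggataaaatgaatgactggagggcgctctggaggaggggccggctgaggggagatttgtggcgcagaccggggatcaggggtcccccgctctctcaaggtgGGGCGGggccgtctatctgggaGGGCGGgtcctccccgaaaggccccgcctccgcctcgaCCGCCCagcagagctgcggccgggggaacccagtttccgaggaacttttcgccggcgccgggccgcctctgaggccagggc

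TCACCCCA was found in 2 of the 30 genes with a window (6.67%), SREBF2 at 133 and MVK at 195 bases before the start site, against 1.89% of the 9839 expressed genes with a window and 1.54% of all 35116 windows. The broader TCACNCCA, which includes it, added MSMO1 at 156 bases, giving 3 of the 30 genes against 4.81% of expressed genes. CCAAT was in 22 of the 30 genes (73.3%), against 43.3% of expressed genes. GGGCGG was in 29 of the 30 (96.7%), against 77.4%. TCACGTGA was found in INSIG1 only, 56 bases before its start site, and in 2.22% of expressed genes. The direct repeat was found in ABCA1 at 69 and HMGCS1 at 185 bases, and in 0.6% of expressed genes. A match is a description of the letters in this window, and the part of any motif in the levels below was not tested. SREBF2 and MVK, which share the sterol element, differed in opposite directions from day 0 in these libraries.

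Markers of the cell line were read first. The 9 osteoblast markers summed to 2024 FPKM on day 0 and to between 3013 and 4332 on the later days, and 6 of the 9 reached 1 FPKM. Nearly all of the sum came from the matrix genes COL1A1, SPARC and COL1A2, at 777, 1113 and 125 FPKM on day 0. RUNX2, ALPL and SPP1 did not exceed 26.2, 4.35 and 7.45 FPKM in any library. BGLAP and IBSP, late osteoblast markers, were listed at 0 on day 0 and stayed under 1 FPKM, as did SP7. Adipocyte markers, of interest because fat cells make fatty acids, summed to 3.44 FPKM on day 0 and to 6.09, 6.87 and 6.89 on days 3, 6 and 9, of which PPARG, the only one to reach 1 FPKM, made up 2.75, 5.17, 6.19 and 6.26 by day, while ADIPOQ was at 0 in all 4 libraries. The summed level of the hepatocyte markers ALB, APOA1 and TTR did not exceed 0.790 FPKM, and that of the endothelial markers did not exceed 0.528. The leukocyte markers summed to 17.4, 38.2, 65.7 and 91.5 FPKM by day, nearly all from CD68, a lysosomal protein, and PTPRC did not exceed 0.441. Of 5 proliferation genes, 3, 3 and 4 were past the 2-fold limit defined above and lower on days 3, 6 and 9, none was higher, and their sum was 740 FPKM on day 0 and 307, 298 and 279 later. The part of proliferation in the values below was not tested. The median FPKM of the 11584 genes with at least 1 FPKM in every library was 16.7, 15.6, 15.7 and 15.7 by day. In bulk RNA, fewer cells of a type and less RNA per cell cannot be told apart.

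On day 3, 7 of the 35 genes were at least 2-fold higher than on day 0, while 8.13% of all expressed genes were (1046 of 12859). They were the efflux transporters ABCA1 and ABCG1, the fatty acid desaturases FADS1 and FADS2, the regulators SREBF2 and INSIG1, and the sterol reductase TM7SF2. None was 2-fold lower, against 5.3% of all genes. The median log2 ratio of the 35 was 0.21, with -0.08 for all genes. On day 6, 3 genes were higher (ABCA1, ABCG1, FADS1) where 9.01% of all genes were, and 3 were lower (SREBF1, EBP, MVK) where 6.42% were. On day 9, ABCA1, ABCG1 and FADS1 were higher, with 9.6% of all genes, and SREBF1, EBP and FASN were lower, with 6.52%. The shares of the 35 genes on days 6 and 9, 8.57% in each direction, lay close to those of all genes. The medians were 0.01 on day 6 and -0.16 on day 9, with -0.08 and -0.09 for all genes. In all, 11 genes passed the limit on at least 1 day and 24 stayed within it on each day.

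**Figure D1:**
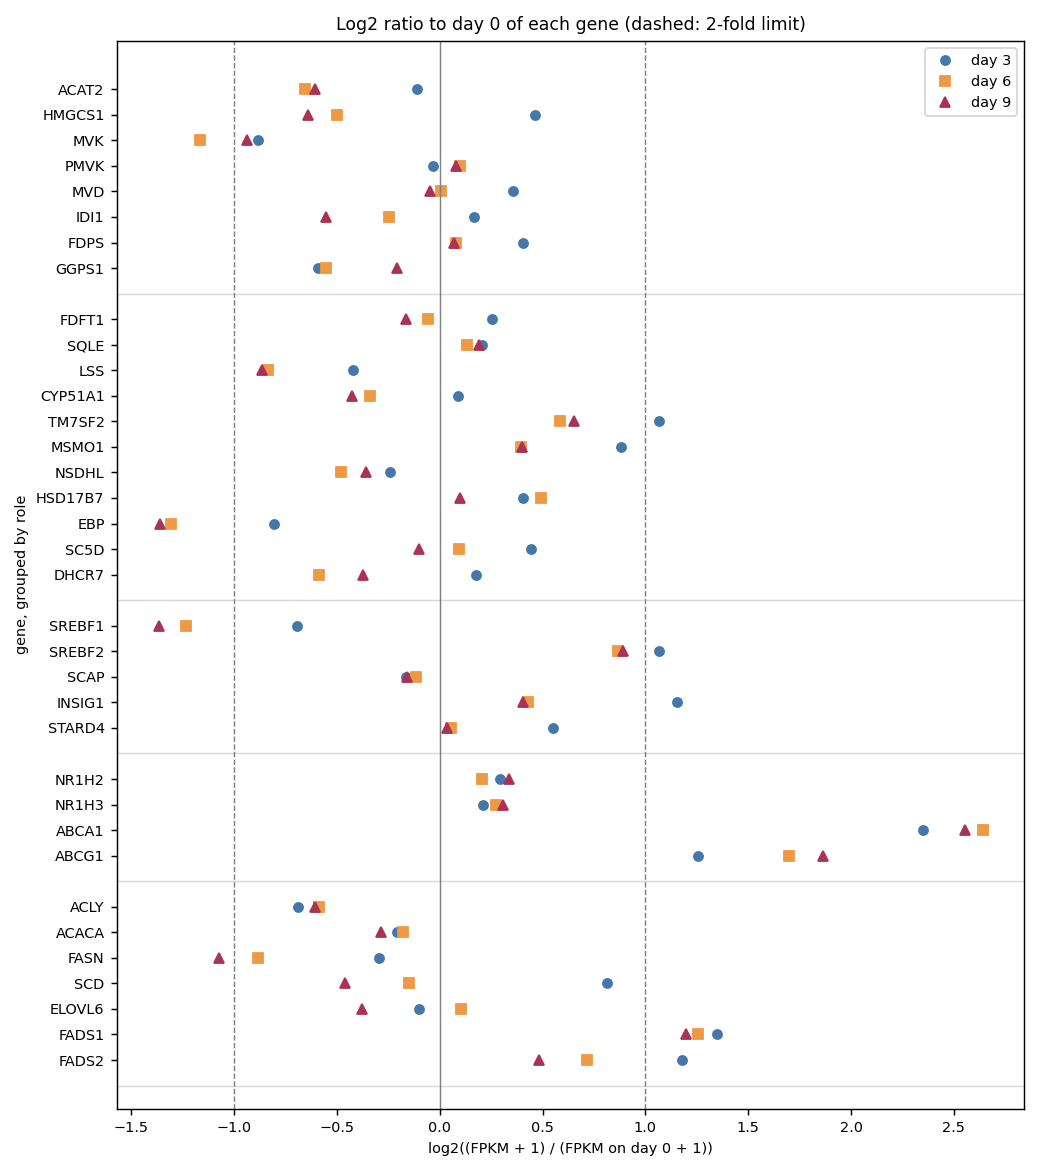
Log2 ratio to day 0 of each of the 35 genes (x axis, 1 added to both FPKM) by gene and role (y axis). Circles, squares and triangles stand for days 3, 6 and 9, and dashed lines mark the 2-fold limit. ABCA1 lies farthest to the right at 2.35, 2.64 and 2.55, and SREBF1 and EBP lie farthest to the left on day 9 at -1.37 and -1.36.

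The day 3 library held the highest of the 4 values for 17 of the 35 genes (48.6%). It did so for 19.2% of all expressed genes. By role, this was so for 7 of the 11 genes from squalene to cholesterol, 4 of the 8 of the mevalonate steps, 3 of the 5 of SREBP control and sterol transport, 3 of the 7 of fatty acid synthesis and none of the 4 LXR and efflux genes. This count was added after the values were seen. These 17 genes are lower on day 6 than on day 3 by definition, so the next comparison is not independent of this count. From day 3 to day 6, 25 of the 35 genes (71.4%) were lower, as were 50.4% of all genes, with a median log2 ratio of -0.33 against -0.00. None passed the 2-fold limit in this comparison, where 0.607% of all genes were higher and 0.443% lower. At a 1.5-fold limit, 5 genes were lower on day 6 than on day 3, against 2.17% of all genes, and none was higher, against 2.32%. These were HMGCS1 (-0.96), SCD (-0.96), DHCR7 (-0.76), INSIG1 (-0.72) and FASN (-0.59). From day 6 to day 9, none of the 35 passed the 2-fold limit, with 0.381% of all genes higher and 0.163% lower, and the median was -0.03.

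**Figure D2:**
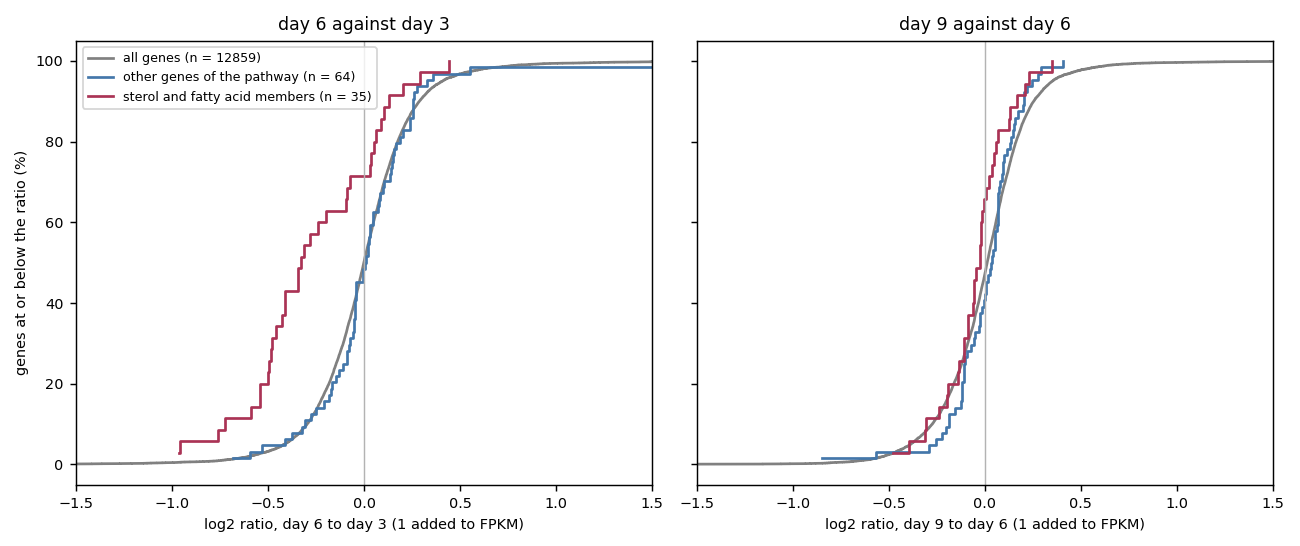
Cumulative share of genes (y axis, percent) at or below each log2 ratio (x axis), for day 6 against day 3 (left) and day 9 against day 6 (right). The curve of the 35 genes lies to the left of that of all 12859 genes from day 3 to day 6, at medians of -0.33 and -0.00, while the 64 other genes of the pathway follow all genes. Genes beyond 1.5 in either direction lie outside the axes.

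The first steps, from acetyl-CoA to the isoprenoids, showed no common direction on day 3, with 4 of the 8 genes above day 0 and 4 below. On days 6 and 9, 5 and 6 of the 8 lay below day 0, as did 54.8% and 55.1% of all genes. The medians of the 8 were -0.37 and -0.38 on these days, with -0.08 and -0.09 for all genes. HMGCS1, which makes the HMG-CoA from which mevalonate is formed, stood at 24.4, 34.0, 16.9 and 15.3 FPKM on days 0, 3, 6 and 9. It was thus highest on day 3 and lower on days 6 and 9 than before induction, with log2 ratios to day 0 of 0.46, -0.50 and -0.64. ACAT2, which joins acetyl-CoA units, stood at 26.3, 24.3, 16.3 and 16.9 FPKM. MVK, the kinase that phosphorylates mevalonate, was the only gene of these steps past the limit, with 14.2 FPKM on day 0 and 7.23, 5.76 and 6.93 later. All 3 later values lay below day 0, at log2 ratios of -0.88, -1.17 and -0.94, so that days 3 and 9 lay just inside the limit and day 6 just outside it.

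The genes after MVK kept their levels more closely. PMVK, the next kinase, varied between 19.3 and 21.2 FPKM, the smallest ratio of highest to lowest library among the 35 genes. MVD, which decarboxylates its product to isopentenyl diphosphate, stood at 17.9, 23.2, 18.0 and 17.3 FPKM. IDI1, the isomerase of that unit, stood at 22.9, 25.8, 19.2 and 15.3. FDPS was the most abundant of the 35 genes on each of days 3, 6 and 9, with 79.3 FPKM on day 0 and 105, 83.7 and 83.3 later, and its highest ratio to day 0 was 0.41. GGPS1, which extends its product for protein prenylation, stood at 19.2, 12.4, 12.8 and 16.6 FPKM, lowest on day 3 when 4 of the other 7 were highest. Summed over the 8 genes, the level was 224, 252, 194 and 193 FPKM. RefSeq names 10 pseudogenes for FDPS and 3 for IDI1, so fragments that match several copies make these levels less certain.

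From squalene to cholesterol, 7 of the 11 genes were at their highest on day 3, as were 19.2% of all genes. On day 3, 1 of the 11 was past the limit and higher, where 8.13% of all genes were. On days 6 and 9, 1 was past it and lower, where 6.42% and 6.52% of all genes were. FDFT1, squalene synthase, led this group at 70.2, 83.8, 67.3 and 62.5 FPKM. SQLE, the squalene epoxidase and a rate-limiting enzyme of the pathway, ranged only from 22.0 to 25.6 FPKM. LSS, which closes the ring to lanosterol, stood at 22.9, 16.8, 12.4 and 12.1 FPKM, each library lower than the one before, and its ratio of -0.86 on day 9 stayed inside the limit. The lanosterol demethylase CYP51A1 stood at 28.5, 30.4, 22.3 and 21.0 FPKM, and RefSeq names 3 pseudogenes for it.

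The later sterol enzymes differed in direction. TM7SF2, a sterol reductase of the step after CYP51A1, was weakly expressed, with 3.09 FPKM on day 0 and 7.56, 5.13 and 5.42 later. Its log2 ratios were 1.07, 0.59 and 0.65. LBR, another gene for this reductase step that is not among the 35, was more abundant, at 40.3, 23.5, 20.8 and 19.0 FPKM. It lay below day 0 on each later day, with log2 ratios of -0.75, -0.92 and -1.04. MSMO1, a methyl sterol oxidase, stood at 34.6, 64.6, 45.8 and 46.0 FPKM, above day 0 on every later day and just inside the limit on day 3 at 0.88. EBP, the sterol isomerase that follows, went the other way, with 42.4, 23.9, 16.6 and 15.9 FPKM. Its log2 ratios of -0.80, -1.31 and -1.36 were the lowest of these 11 genes on each day. SC5D, the desaturase after EBP, stood at 45.4, 62.1, 48.6 and 42.3 FPKM, so that EBP and SC5D were at similar levels on day 0 and differed on each later day.

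The remaining 3 genes of this section stayed within the limit. NSDHL, which removes a methyl group together with MSMO1, ranged from 10.3 to 14.7 FPKM and was highest on day 0. HSD17B7, the keto reductase of the same complex, ranged from 7.08 to 10.4 FPKM and was highest on day 6, and RefSeq names 2 pseudogenes for it. DHCR7, a reductase of the final steps to cholesterol, stood at 24.7, 28.1, 16.1 and 18.8 FPKM. The 11 genes summed to 316, 365, 279 and 268 FPKM. On day 6, 10 of them were lower than on day 3, as were 50.4% of all genes. For the 7 that were highest on day 3 this holds by definition. The median log2 ratio of the 11 was -0.41, with -0.00 for all genes.

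**Figure D3:**
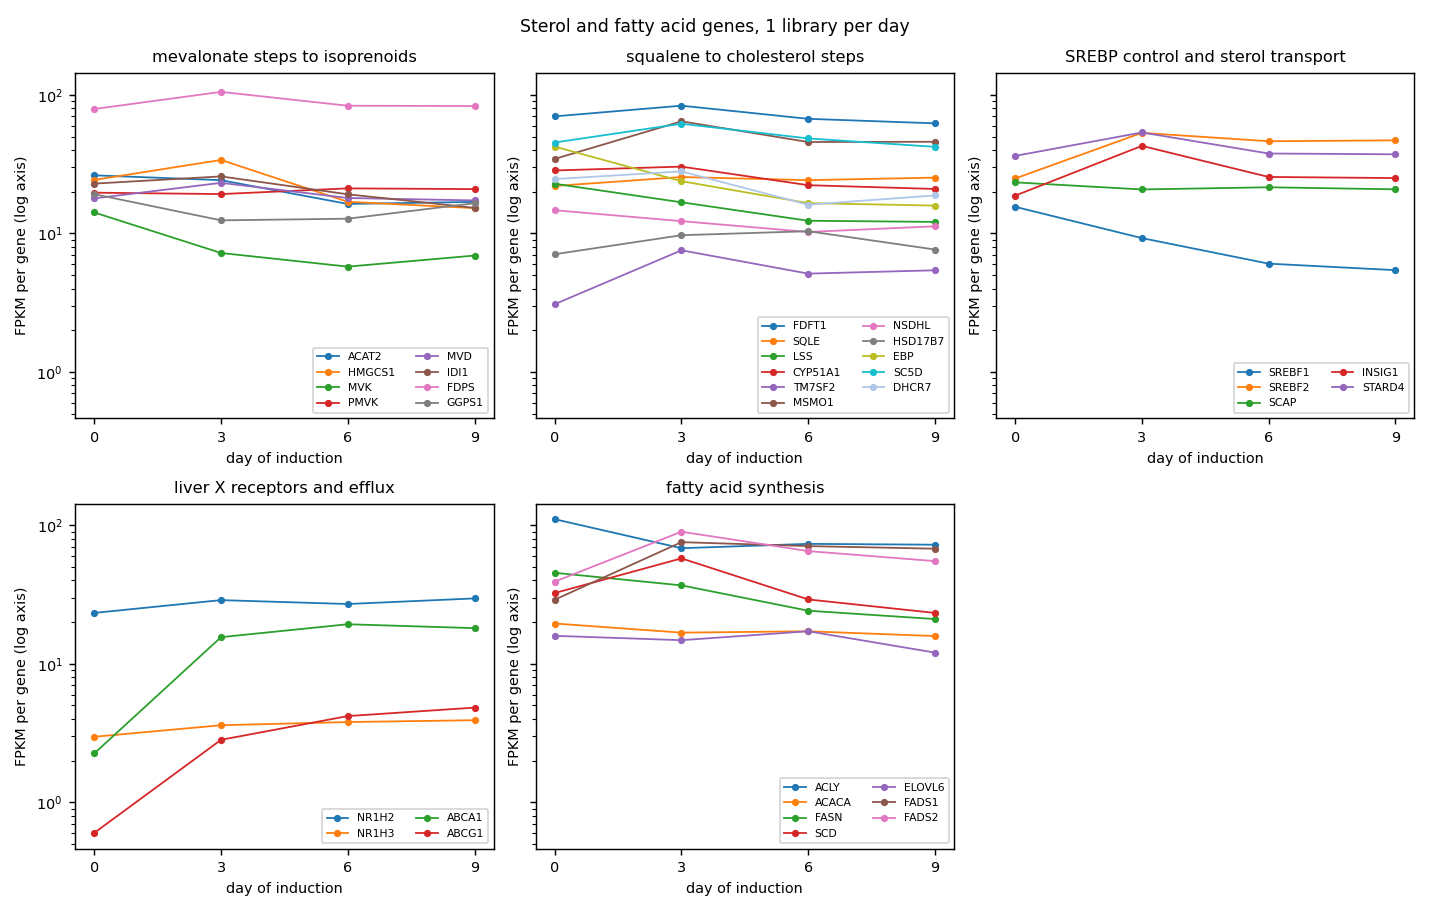
FPKM of each gene (y axis, log scale) by day of induction (x axis), 1 panel per role, 1 point per library and no error bars because each day has 1 library. SREBF2 and INSIG1 stand at 53.3 and 42.9 FPKM on day 3, while SREBF1 falls from 15.6 to 5.43 FPKM, and ABCA1 and ABCG1 climb from the bottom of their panel.

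The genes for the SREBPs lay on opposite sides of their day 0 levels. SREBF2 had 25.0 FPKM on day 0 and 53.3, 46.4 and 47.1 on days 3, 6 and 9. All later values were higher than day 0, past the limit on day 3 (log2 ratio 1.07) and just inside it on days 6 and 9 (0.87 and 0.89). SREBF1 had 15.6 FPKM on day 0 and 9.26, 6.06 and 5.43 later, each lower than the library before, with log2 ratios of -0.69, -1.23 and -1.37. The ratio of SREBF1 to SREBF2 FPKM was 0.624 on day 0 and 0.174, 0.131 and 0.115 on the later days. For SREBF2, 1 transcript (ENST00000361204) held between 96.2% and 99.3% of the level in every library. For SREBF1, the leading transcript (ENST00000261646) stood at 12.5, 5.15, 4.01 and 3.85 FPKM and so was also lower on every later day.

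Among the genes for SCAP and the INSIG proteins, INSIG1 passed the limit, and INSIG2 and SCAP did not. INSIG1, itself a target gene of SREBPs, stood at 18.8 FPKM on day 0, 42.9 on day 3 and 25.6 and 25.1 on days 6 and 9. It was above day 0 on every later day and past the limit on day 3 alone, with log2 ratios of 1.15, 0.43 and 0.40. INSIG2, which is not among the 35 genes, stood at 8.98, 18.1, 17.0 and 17.8 FPKM. It lay above day 0 on every later day and inside the limit, with log2 ratios of 0.94, 0.85 and 0.92. SCAP, the escort of SREBPs, stood at 23.4, 20.8, 21.6 and 20.8 FPKM. The FPKM ratio of INSIG1 to SCAP was 0.802, 2.06, 1.19 and 1.21 by day. STARD4, a carrier of cholesterol between membranes and an SREBP target, stood at 36.3, 53.7, 37.8 and 37.3 FPKM, above the other libraries on day 3 but inside the limit at 0.55.

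The efflux transporters were past the limit on all 3 later days, and the receptors that control them stayed within it. ABCA1, which loads cholesterol onto lipid-poor apolipoproteins, stood at 2.25 FPKM on day 0 and at 15.6, 19.3 and 18.1 later, which is 6.92, 8.57 and 8.03 times the level of day 0 with no value added. ABCG1, which passes cholesterol to larger lipoproteins, stood at 0.601 FPKM on day 0 and at 2.82, 4.19 and 4.82 later, or 4.70, 6.97 and 8.03 times day 0. All 3 later libraries lay above day 0 for both, and the log2 ratios with 1 added were 2.35, 2.64 and 2.55 for ABCA1 and 1.26, 1.70 and 1.86 for ABCG1. For ABCG1, the level on day 0 lay under 1 FPKM, so its fold rests on a small value. The receptor NR1H2 (LXR beta) stood at 23.3, 28.8, 27.0 and 29.7 FPKM, and NR1H3 (LXR alpha) at 2.97, 3.60, 3.79 and 3.91. Both receptors were above day 0 on every later day, with log2 ratios of at most 0.33, and NR1H2 had between 7.12 and 8.01 times the FPKM of NR1H3.

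Of the 7 genes of fatty acid synthesis, FADS1 was past the limit on all 3 days, FADS2 on day 3 and FASN, which was lower, on day 9, and the other 4 stayed within it. ACLY, which makes cytosolic acetyl-CoA from citrate, was the most abundant of the 35 genes on day 0 with 111 FPKM and stood at 68.4, 73.5 and 72.5 later, inside the limit at -0.69, -0.58 and -0.60. ACACA, the carboxylase that commits acetyl-CoA to fatty acids, ranged from 15.9 to 19.5 FPKM. FASN, fatty acid synthase, stood at 45.4, 36.9, 24.2 and 21.0 FPKM, each library lower than the one before, and passed the limit on day 9 at -1.07. ELOVL6, which lengthens its product, ranged from 12.0 to 17.2 FPKM.

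The desaturases of polyunsaturated fatty acids lay above day 0 on all later days. FADS1, the delta-5 desaturase, stood at 29.0 FPKM on day 0 and at 75.6, 70.8 and 67.8 later, past the limit each time with 1.35, 1.26 and 1.20. FADS2, the delta-6 desaturase, stood at 39.2, 89.9, 65.2 and 55.2 FPKM, past the limit on day 3 alone with 1.18, 0.72 and 0.48. The ratio of FADS1 to FADS2 FPKM therefore moved from 0.740 and 0.841 on days 0 and 3 to 1.09 and 1.23 on days 6 and 9. In RefSeq the genes lie on opposite strands with a pair of start sites 599 bases apart and overlapping 5′ ends, and the strand setting of the authors' counting was not given in the sources used here, so reads of that overlap cannot be assigned here. SCD, which makes monounsaturated fatty acids, stood at 32.4, 57.7, 29.2 and 23.3 FPKM, highest on day 3 (log2 ratio 0.81, inside the limit) and below day 0 afterwards. RefSeq names 1 pseudogene for SCD. The ratio of SCD to FASN FPKM was 0.714, 1.57, 1.21 and 1.11.

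Most of the genes have several annotated transcripts, and 6 of the 32 with more than 1 changed their leading transcript between libraries. These were HMGCS1, MVD, FDPS, NSDHL, NR1H3 and ACACA. In MVD, ENST00000620002 stood at 14.7 FPKM on day 0 and at 6.11, 4.79 and 7.31 later, while ENST00000301012 went from 0.000229 to 12.6, 9.61 and 7.62. The MVD total differed from day 0 by at most 0.36 on the log2 scale meanwhile. In FDPS, ENST00000467076 led narrowly on day 0 with 33.4 against 32.5 FPKM for ENST00000447866, which led on day 3 with 58.0 against 27.0. In ACLY, ENST00000590151 was listed at 13.1 FPKM on day 0 and at 0 in the other libraries. In EBP, ENST00000446158 was at 6.51 FPKM on day 0, 0.359 on day 3 and 0 afterwards, and the leading EBP transcript also decreased, from 27.7 to 15.5, 12.6 and 12.0. How fragments shared by the transcripts of a gene were divided is set by the program that made the FPKM, which is not given in the sources used here, so these transcript levels are less certain than the totals.

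**Figure D4:**
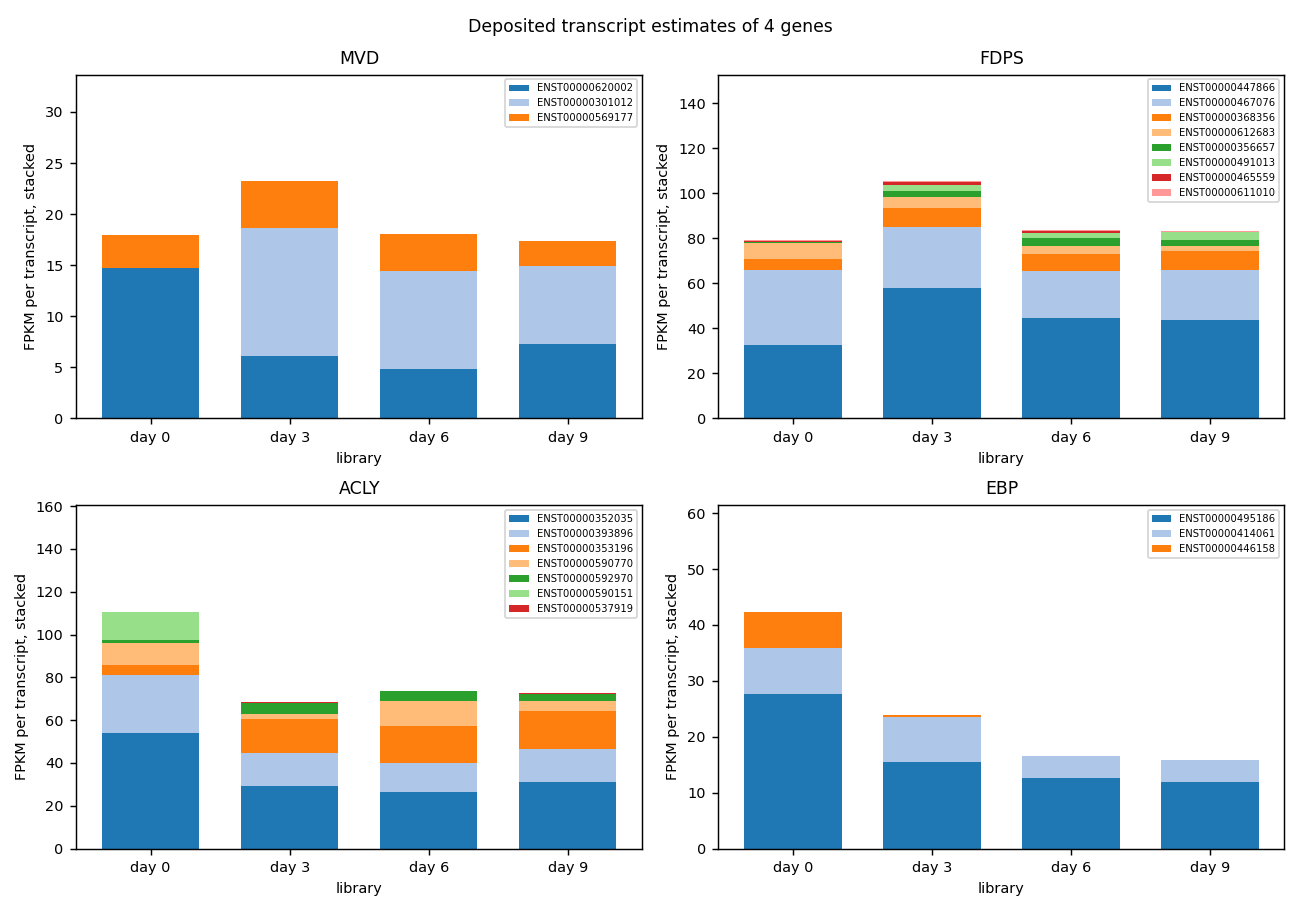
FPKM of each annotated transcript (stacked on the y axis, in colours) in each of the 4 libraries (x axis) for MVD, FDPS, ACLY and EBP. In MVD the leading transcript on day 0, at 14.7 FPKM, gives way to another at 12.6 FPKM on day 3. The MVD total is 17.9 FPKM on day 0 and 23.2 on day 3, while EBP loses level in total.

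Of 69 other genes of sterol and fatty acid metabolism, 64 reached 1 FPKM. On days 3, 6 and 9, 4, 4 and 5 of them were 2-fold higher than on day 0 and 4, 3 and 4 were lower. The shares of all genes given above were 8.13%, 9.01% and 9.6% higher and 5.3%, 6.42% and 6.52% lower, so these counts lie close to the background. Their median log2 ratios were -0.07, 0.00 and 0.04, and day 3 was the highest library for 12 of the 64 (18.8%), close to the share of all genes. Among them, 5 passed the limit on all 3 days. LRP1, a large receptor that takes up lipoprotein remnants, stood at 47.3, 158, 153 and 160 FPKM. VLDLR, a receptor of triglyceride-rich lipoproteins, stood at 2.56 on day 0 and at 8.85 or more on each later day. Both receptors were thus higher on every later day, by log2 ratios between 1.47 and 1.74. SCD5, the other human stearoyl-CoA desaturase, stood at 11.5, 40.5, 41.4 and 41.0 FPKM, past the limit on all later days, while SCD was within it on each. FAXDC2 stood at 2.17, 10.9, 6.90 and 6.25 FPKM. COQ2, which starts the ring of coenzyme Q from the isoprenoid branch, was lower on all 3 days, with log2 ratios of -1.01, -1.09 and -1.38.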

How the data were processed

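RNA-seq values came from 4 libraries of hFOB 1.19 cells, 1 per time point. According to the labels and the study's methods, ribosomal RNA was removed, libraries were made with a directional kit, and reads were aligned with Bowtie and TopHat. RNase R, which digests linear RNA, is described for the mRNA libraries and as not used for those of circRNAs. Whether the mRNA libraries were treated in this way cannot be settled here, so any effect on these FPKM is not known. The submitters' processing notes name Bowtie 0.12.2 and the mouse build mm8, while the organism is human. The program behind the FPKM and the human build are not given in the sources used here. The authors deposited FPKM per transcript for mRNAs and lncRNAs, with no read counts per gene, so no counting interval is given. Small values such as 0.000229 show that FPKM are estimates, not whole reads.

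FPKM were summed per symbol, 1 was added, and genes with at least 1 FPKM in any library were compared by log2 ratio at a 2-fold limit with no test. The members, roles and lists were chosen with earlier results of these data known. Values in all libraries are given for genes past the limit on any day, the control genes and the 3 most abundant genes of each role. Other pathway genes are named where past the limit on all 3 later days, and lncRNAs where their name starts with that of a member. LBR and INSIG2 are also given, beside TM7SF2 and INSIG1. The search for the direct repeat, the shares among expressed genes and the count of genes highest on day 3 were added after the data were seen. Alternatives were 0.1 FPKM added, no minimum or a minimum of 5 FPKM, rescaling to the same median, a 1.5-fold limit and the leading transcript, the one with the highest mean FPKM over the libraries. Not used were the circRNA counts, 26 columns of per-sample values in other tables, and 9 tables of the authors' comparisons with day 0, which hold fold changes, p-values and q-values. All steps ran in Python (3.11.15), using pandas 2.3.3 and numpy 2.4.6, and figures were made in matplotlib 3.10.9.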

Additional observations from a re-analysis of the deposited data

Results flagged for a closer look

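The table of long noncoding RNAs, which the comparisons of the 35 genes do not use, lists STARD4-AS1, annotated antisense to the cholesterol carrier gene STARD4. It stood at 3.91 FPKM on day 0 and at 13.5, 8.92 and 7.37 FPKM on days 3, 6 and 9. Its value of 13.5 on day 3 drew attention because it lies above day 0, the control library, with log2 ratios of 1.56, 1.01 and 0.77 on the later days. STARD4 itself had log2 ratios of 0.55, 0.06 and 0.04. Without the strand setting of the counting, reads of the antisense RNA and of STARD4 cannot be told apart where the genes overlap.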

How the results depend on the processing

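No paired analysis was possible because only 1 library stands for each time point, and for the same reason no library could be left out. Of 88 results on the comparisons under the alternatives, 80 stayed close to their values (counts within 1.5 times, medians within 0.1) and 8 moved. With 0.1 FPKM added, 1 gene was 2-fold lower on day 6 than on day 3. At the 1.5-fold limit, 5 genes were lower than day 0 on day 3, 6 were higher and 7 lower on day 6, and 5 were higher and 8 lower on day 9, while 5 were lower on day 6 than on day 3 (2.17% of all genes). At that limit, 18.5% of all genes were lower on day 3, 18.0% higher and 20.1% lower on day 6, and 18.1% higher and 20.4% lower on day 9, close to the shares of the 35. With the leading transcript alone, 2 genes were lower on day 3, and MVD changed direction on day 3 (-1.14) and day 6 (-1.44), as did NR1H3 on day 6 (-1.05), since each gene changes its leading transcript. Of 519 ratios of single genes, 510 stayed on their side of the limit, of which 13 changed sign within it, 10 by leading transcript and 3 after rescaling. Those that crossed the limit were FASN on day 9 after rescaling (-0.99), MVK on day 9 with 0.1 added (-1.02), and, by leading transcript, MVK on day 6 (-0.57), TM7SF2 on day 3 (0.97), ABCG1 on day 3 (0.97) and SREBF1 on day 3 (-1.14). The 17 genes highest on day 3 were the same with a minimum of 5 FPKM and after rescaling. By leading transcript they numbered 18, of which 15 were shared: MVD and SQLE dropped out and ACACA, ELOVL6 and HSD17B7 came in. The other alternatives cannot alter this count.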
